A study of Mus musculus with 34 samples.

Results

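The cadherin genes *Cdh1*, *Cdh2*, *Cdh3*, *Cdh4*, *Cdh5*, *Cdh6*, *Cdh11*, *Cdh13* and *Cdh16*, were followed across normal and polycystic mouse kidneys by RNA sequencing. These 9 members, of 23509 genes in each count table, were chosen by name, and *Cdh3* was selected on its difference between PBS-treated cystic and normal kidney, so the values of that comparison are given as a description without a test. All 9 passed the filter on low counts, which left 15644 genes. The series holds 34 whole kidneys of C57BL6 mice taken on postnatal day 28. The 12 UNT mice were wildtype and received no treatment. The 11 PBS and the 11 RGLS4326 mice were *Pkd2*-KO (spelled Pdk2KO in the sample names), in which Cre under the *Pkhd1* promoter, active in tubule epithelium, deletes floxed *Pkd2*. Both knockout groups were injected subcutaneously on postnatal days 10, 11, 12 and 19, with PBS or with 20 mg per kg of RGLS4326, a short oligonucleotide that inhibits the microRNA miR-17. UNT mice were not injected, so genotype and injection cannot be told apart in any comparison with them.

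Classical cadherins are calcium-dependent adhesion receptors that span the membrane and bind the same or a related cadherin on the neighbouring cell. Their cytoplasmic tails hold beta and delta catenins, and alpha catenin links this complex to actin, which together make the adherens junction. In the kidney, epithelial tubule cells, stromal cells and endothelial cells carry different sets of cadherins, and several sets change while the nephron forms. Polycystic kidneys carry fluid-filled cysts that arise from tubule epithelium, between which the stroma expands.

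Libraries held 17603122 to 54981992 reads in genes. The level of a gene is given as CPM, the read count relative to the reads in genes of its library after TMM scaling, and a comparison between genes as CPM per kb of exon. *Pkd2*, the deleted gene, lay between 220 and 338 CPM in UNT, 98 and 215 CPM in PBS and 170 and 237 CPM in RGLS4326 kidneys; tubule segments without Cre and all other cells keep the gene. Markers of kidney segments, glomerulus, vessels and stroma were detected in all groups, with none of them at 0 throughout a group. Adrenal gland markers summed to 534 CPM in PBS replicate 2 and 831 CPM in PBS replicate 11, against at most 25.6 CPM in any RGLS4326 kidney and 4.04 CPM in any UNT kidney. The share of reads that fell in no annotated gene was 12.9% to 14.9% in UNT, 6.08% to 11.0% in PBS and 5.82% to 14.6% in RGLS4326 libraries, and 4 RGLS4326 libraries (replicates 5, 6, 7 and 11) lay above every PBS library in it. Because whole kidneys were sequenced, more cells of a type and more RNA per cell cannot be told apart.

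Of the 9 cadherins, *Cdh16* and *Cdh1* were the most abundant in every group, and *Cdh3*, at rank 4 in normal kidney, was at rank 3 in cystic kidney. Per kb of exon, *Cdh16* came first in UNT kidneys at 403 ± 23.7 CPM per kb (SD, n = 12), followed by *Cdh1* at 55.5 ± 4.29 and *Cdh5* at 16.1 ± 2.67 CPM per kb. These 3 did not overlap with one another or with *Cdh3*, the next in order at 2.55 ± 0.318 CPM per kb. *Cdh3* and *Cdh11* (2.10 ± 0.613 CPM per kb) overlapped in UNT kidneys, and *Cdh3* was the higher of this pair in 9 of 12 mice. *Cdh2* and *Cdh13* could not be ordered, since each was the higher in 6 of 12 UNT mice. *Cdh4* was the lowest at 0.276 ± 0.0525 CPM per kb, below the whole range of *Cdh13*.

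In PBS kidneys *Cdh3* passed *Cdh5*, at 36.2 ± 6.78 against 22.8 ± 2.88 CPM per kb (SD, n = 11), and was the higher of the pair in 11 of 11 mice. In RGLS4326 kidneys the pair stood at 27.8 ± 5.26 and 26.2 ± 3.14 CPM per kb, and *Cdh3* was the higher in 7 of 11 mice. *Cdh2* was the lowest member in PBS kidneys at 0.726 ± 0.191 CPM per kb. Summed over the 9 genes, the level was 481 ± 25.9 CPM per kb in UNT, 687 ± 66.4 in PBS and 597 ± 120 in RGLS4326 kidneys. *Cdh16* made up 83.7% ± 1.27 of that sum in UNT (SD, n = 12), 69.2% ± 2.19 in PBS and 69.8% ± 2.18 in RGLS4326 kidneys (SD, n = 11). *Cdh1* gave 11.6% ± 0.822, 20.1% ± 1.82 and 17.6% ± 0.898 of the sum in the same order of groups, and *Cdh3* gave 0.532% ± 0.0744, 5.25% ± 0.686 and 4.68% ± 0.481.

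**Figure D1:**
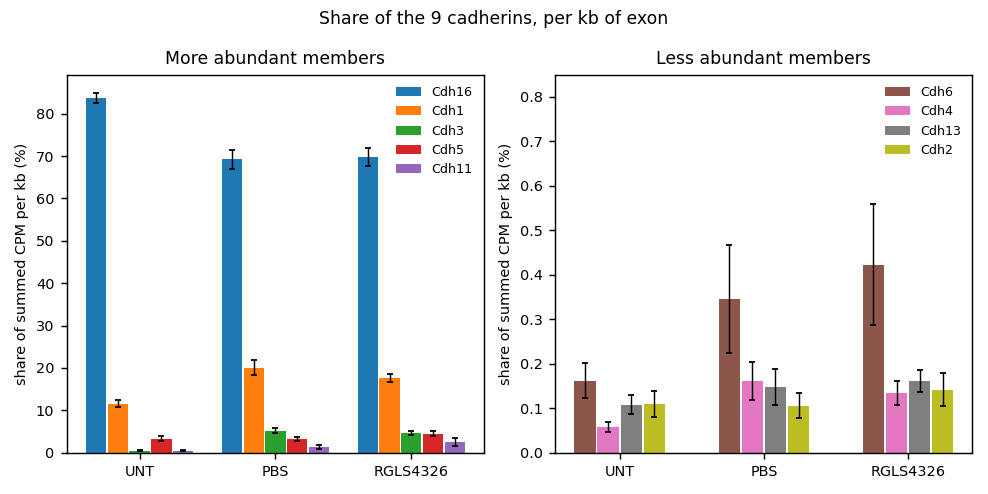
Each bar is the mean share of a cadherin in the summed CPM per kb of the 9 genes (%), by group, with the SD over 12 UNT, 11 PBS and 11 RGLS4326 mice; the left panel holds the 5 more abundant genes and the right panel the other 4 on its own axis. *Cdh16* falls from 83.7% of the sum in UNT to 69.2% in PBS kidneys, while *Cdh3* goes from 0.532% to 5.25%.

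*Cdh1* (E-cadherin), the main adherens junction cadherin of distal tubules and collecting ducts, lies at chr8:106603351-106670246 on the plus strand (GRCm38). Its level was 226 to 284 CPM in UNT kidneys with a median of 250, 513 to 813 CPM in PBS kidneys with a median of 590, and 378 to 646 CPM in RGLS4326 kidneys with a median of 453. Every PBS and every RGLS4326 mouse lay above every UNT mouse, and 8 of 11 RGLS4326 mice lay below the lowest PBS mouse. PBS kidneys held 2.49-fold more than UNT kidneys, a log2 fold change of 1.32 ± 0.09 (SE), which was 0.83 once the percent of reads outside genes was a covariate. UNT and PBS libraries do not overlap in that percent, so the adjusted value cannot separate it from the group.

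*Cdh3* (P-cadherin), a classical cadherin of stratified and glandular epithelia, lies at chr8:106510891-106557297 on the plus strand, 46053 bases before *Cdh1* with 1 protein-coding gene between them. It was at 8.74 to 13.8 CPM in UNT kidneys with a median of 11.3, at 115 to 211 CPM in PBS kidneys with a median of 152, and at 92.3 to 161 CPM in RGLS4326 kidneys with a median of 109. The lowest value in any knockout kidney was therefore far above the highest in any UNT kidney, whereas the PBS and RGLS4326 ranges overlapped. PBS kidneys held 14.2-fold more than UNT kidneys, at 3.82 ± 0.11 on the log2 scale (SE), the largest difference of the 9 members, and at 3.31 with the same covariate and its limit. Per kb of exon, the ratio of *Cdh3* to *Cdh1* was 0.0460 ± 0.00517 in UNT, 0.261 ± 0.0206 in PBS and 0.266 ± 0.0253 in RGLS4326 kidneys, so the pair kept nearly the same proportion in both knockout groups. Both fitted levels were lower in RGLS4326 than in PBS kidneys, but without 4 RGLS4326 libraries neither was called (edgeR adjusted p of 0.141 and 0.119).

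*Cdh16* (kidney-specific cadherin), which has a short tail without the catenin-binding part and is found along the tubule, lies at chr8:104601911-104624396 on the minus strand. It was at 1380 to 1690 CPM in UNT kidneys with a median of 1510, at 1560 to 2210 CPM in PBS kidneys with a median of 1770, and at 1120 to 2120 CPM in RGLS4326 kidneys with a median of 1570. The UNT and PBS ranges overlapped in part, and the RGLS4326 mice spread from below every UNT mouse to near the highest PBS mouse. *Cdh16* had the smallest log2 fold change of PBS against UNT among the 9, 0.24 ± 0.09 (SE), and it turned to -0.21 when the share of reads in no gene entered as a covariate. UNT and PBS libraries do not overlap in that share, so no change of direction is read from the adjusted value.

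*Cdh4* (R-cadherin) and *Cdh6* (K-cadherin) are known from the developing nephron, where *Cdh6* marks early proximal tubule cells. *Cdh4*, at chr2:179442431-179899373 on the plus strand, was at 1.47 to 2.50 CPM in UNT kidneys with a median of 1.97, at 4.97 to 13.3 CPM in PBS kidneys with a median of 8.15, and at 3.70 to 7.37 CPM in RGLS4326 kidneys with a median of 5.94. UNT mice stayed below all knockout mice, and the highest PBS value belonged to replicate 11, one of the 2 kidneys with adrenal gland markers. *Cdh6*, at chr15:13028701-13173675 on the minus strand, was at 3.72 to 11.1 CPM in UNT kidneys with a median of 6.74, at 5.36 to 28.8 CPM in PBS kidneys with a median of 21.3, and at 12.7 to 27.6 CPM in RGLS4326 kidneys with a median of 23.2. All RGLS4326 mice and 10 of 11 PBS mice lay above the UNT mice. Between PBS and UNT the log2 fold change was 2.02 ± 0.15 (SE) for *Cdh4* and 1.59 ± 0.18 for *Cdh6*.

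These 2 genes were also the only members whose longest annotated 3′ UTR held a perfect match to the miR-17 seed, the microRNA that RGLS4326 inhibits. The mature miR-17 (RefSeq) is printed with its seed, bases 2 to 8, in capitals, and the 2 target sites with the 8 bases that match the seed, including the A facing base 1, in capitals:
mmu-miR-17-5p: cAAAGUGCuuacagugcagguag
*Cdh4* site: ctggcaggGCACTTTAccatggcagc
*Cdh6* site: caagaactGCACTTTAcacagtttat
The motifs searched were GCACTTT and CACTTTA on the transcript strand, which overlap in an 8-base match. The *Cdh4* window is chr2:179897139-179897164 on the plus strand, with the match starting at base 1229 of a 3455-base 3′ UTR. The *Cdh6* window is chr15:13031949-13031974 on the minus strand, with the match starting at base 2234 of a 5499-base 3′ UTR. Among 21020 protein-coding genes with an annotated 3′ UTR, 18.6% held either motif. A match is a description of letters and not a measured site.

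*Cdh2* (N-cadherin), on chromosome 18, is the classical cadherin of neurons and mesenchyme and in kidney also of proximal tubules. It was at 3.19 to 6.76 CPM in UNT kidneys with a median of 3.90, at 2.48 to 7.67 CPM in PBS kidneys with a median of 6.05, and at 4.58 to 8.01 CPM in RGLS4326 kidneys with a median of 6.92. The 3 ranges overlapped, and 3 of 11 PBS mice exceeded all UNT mice. The log2 fold change of PBS against UNT was 0.46 ± 0.14 (SE), and it was -0.12 among the mice of run 3. Runs are 3 sets of libraries read from the restart of the numbering in the table names, with 3 or 4 mice of each group in each.

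*Cdh11* (OB-cadherin), the cadherin of mesenchymal cells and fibroblasts, lies at chr8:102632095-102785642 on the minus strand. It was at 10.4 to 29.1 CPM in UNT kidneys with a median of 17.9, at 42.8 to 121 CPM in PBS kidneys with a median of 83.4, and at 103 to 178 CPM in RGLS4326 kidneys with a median of 115. The groups stood in the order UNT, PBS and RGLS4326, with no UNT mouse reaching a knockout mouse. The log2 fold change of PBS against UNT was 2.17 ± 0.15 (SE), 4.5-fold, second to that of *Cdh3*. Fibroblast markers (*Col1a1*, *Col3a1*, *Pdgfra*, *Dcn* and *Lum*) summed to 354 to 969 CPM in UNT, 2060 to 4430 CPM in PBS and 2860 to 4300 CPM in RGLS4326 kidneys, with 5 of 5 higher in PBS than in UNT, and their part in the *Cdh11* values was not tested.

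*Cdh5* (VE-cadherin), the adherens junction cadherin of endothelium, lies at chr8:104101625-104144511 on the plus strand. It was at 50.3 to 84.9 CPM in UNT kidneys with a median of 66.6, at 66.6 to 116 CPM in PBS kidneys with a median of 97.8, and at 93.2 to 134 CPM in RGLS4326 kidneys with a median of 103. All RGLS4326 mice and 10 of 11 PBS mice lay above the highest UNT mouse. The log2 fold change of PBS against UNT was 0.50 ± 0.08 (SE). Of 7 other endothelial markers, 2 had a higher and 5 a lower fitted level in PBS than in UNT kidneys, and their sum was 561 to 746 against 647 to 803 CPM; their part in the *Cdh5* values was not tested.

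*Cdh13* (T-cadherin), which is held to the membrane by a lipid anchor, has no cytoplasmic tail and is known from vessels, lies at chr8:118283733-119324921 on the plus strand. It was at 3.88 to 7.67 CPM in UNT kidneys with a median of 5.90, at 5.48 to 19.3 CPM in PBS kidneys with a median of 11.0, and at 7.32 to 12.5 CPM in RGLS4326 kidneys with a median of 10.6. PBS mice spread the most, with replicate 9 lowest and replicate 11 highest. PBS kidneys stood 0.98 ± 0.14 (SE) above UNT kidneys on the log2 scale.

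**Figure D2:**
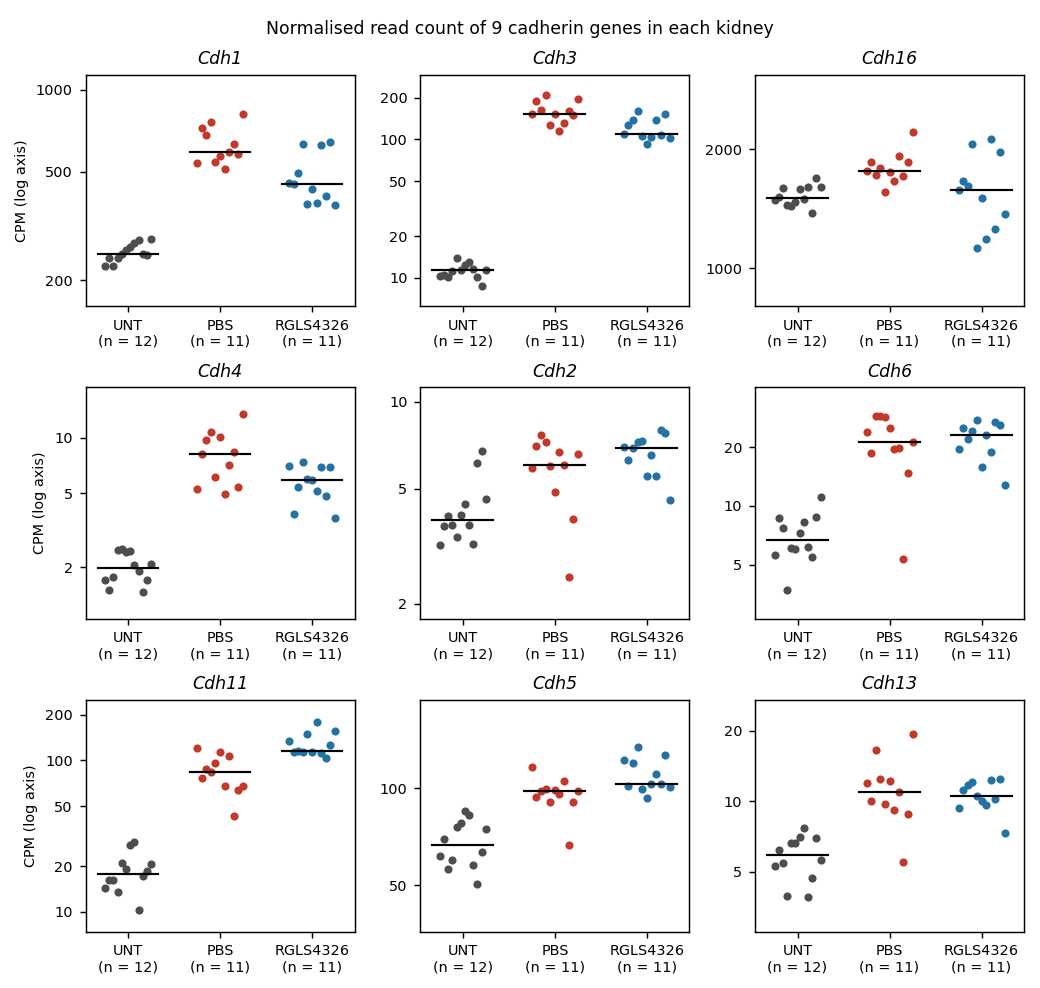
Each point is 1 kidney, its height the TMM-scaled level in CPM on a log axis, and each black line the group median, for 12 UNT (grey), 11 PBS (red) and 11 RGLS4326 (blue) mice. For *Cdh1*, *Cdh3*, *Cdh4* and *Cdh11* every knockout kidney lies above every UNT kidney, and for *Cdh6*, *Cdh5*, *Cdh2* and *Cdh13* a single low PBS mouse (replicate 9) stands below the others.

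Over all members, the 9 fitted levels were each higher in PBS than in UNT, with a median log2 fold change of 1.32 against 0.04 over all tested genes. For 4 of 9 (*Cdh1*, *Cdh3*, *Cdh4* and *Cdh11*) the groups did not overlap, and among all tested genes 22.7% were higher in PBS without overlap; the choice of the members used this comparison, so nothing is read from that count. RGLS4326 and UNT kidneys did not overlap for 6 of 9, *Cdh5* and *Cdh6* in addition, against 20.7% of all tested genes, and this comparison shares the UNT mice. PBS replicate 9 was the lowest PBS mouse for 5 members. There *Cdh6* was at 5.36 CPM against 14.8 to 28.8 in the other PBS mice, *Cdh11* at 42.8 against 63.5 to 121, *Cdh5* at 66.6 against 90.4 to 116, *Cdh13* at 5.48 against 8.79 to 19.3 and *Cdh2* at 2.48 against 3.95 to 7.67. Its *Cdh1* (631 CPM), *Cdh3* (161 CPM), *Cdh4* (8.39 CPM) and *Cdh16* (1720 CPM) lay inside the range of the other PBS mice. The same kidney had the lowest summed fibroblast markers of the PBS group (2060 CPM) and the highest summed macrophage markers (883 CPM). It was also the lowest PBS kidney in thick ascending limb (2250 CPM) and distal convoluted tubule markers (185 CPM), and its principal cell markers, at 2250 CPM, lay near the top of the PBS range of 963 to 2380 CPM. The part of these markers in its cadherin levels was not tested.

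The comparison of RGLS4326 with PBS asks what the anti-miR-17 oligonucleotide did in cystic kidneys, and it did not choose the members. No kidney given a control oligonucleotide is among these samples, so miR-17 inhibition and an effect of any oligonucleotide cannot be told apart. Epithelial *Cdh1* and *Cdh3* and the nephron cadherin *Cdh4* were lower after RGLS4326, and stromal *Cdh11* was higher, but all 4 calls were lost without 4 RGLS4326 libraries (edgeR adjusted p of 0.0923 to 0.141) and with the covariate for reads outside genes (0.117 to 0.194). *Cdh1* fell by 0.39 on the log2 scale (SE 0.10, 95% interval -0.59 to -0.20, adjusted p = 0.00501, edgeR quasi-likelihood test with Benjamini-Hochberg adjustment over all genes), a level of 0.762 times that in PBS, and was below the PBS mean in 9 of 11 mice. *Cdh3* fell by 0.38 (SE 0.10, interval -0.58 to -0.18, edgeR adjusted p = 0.00629), with 10 of 11 mice below the PBS mean. *Cdh4* fell by 0.50 (SE 0.15, interval -0.81 to -0.20, edgeR adjusted p = 0.0136), with 11 of 11 mice below it. *Cdh11* rose by 0.61 (SE 0.15, interval 0.31 to 0.91, edgeR adjusted p = 0.00513), 1.53-fold, with 11 of 11 mice above the PBS mean. Set beside their own differences from UNT, *Cdh1* was at 1.32 in PBS and 0.92 in RGLS4326 kidneys, *Cdh3* at 3.82 and 3.44, *Cdh4* at 2.02 and 1.52 and *Cdh11* at 2.17 and 2.78 on the log2 scale. These comparisons share the UNT or the PBS mice and *Cdh3* was chosen on 1 of them, so no reversal is read from their signs.

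The other 5 members did not pass the threshold. Endothelial *Cdh5* differed by 0.20 (interval 0.03 to 0.38, edgeR adjusted p = 0.0601) and *Cdh16* by -0.18 (interval -0.36 to -0.003, edgeR adjusted p = 0.102). *Cdh2* differed by 0.17 (interval -0.12 to 0.47), *Cdh6* by 0.05 (interval -0.32 to 0.42) and *Cdh13* by -0.12 (interval -0.41 to 0.18), with edgeR adjusted p of 0.348, 0.860 and 0.538. The intervals of *Cdh4* and *Cdh6*, the pair with a miR-17 seed match, were -0.81 to -0.20 and -0.32 to 0.42, so neither rose past the threshold. Of the 9 members 4 were called, against 33.8% of all 15644 tested genes (15.3% higher and 18.5% lower), a share near this background. No member separated RGLS4326 from PBS without overlap, as 0.0639% of all tested genes did.

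**Figure D3:**
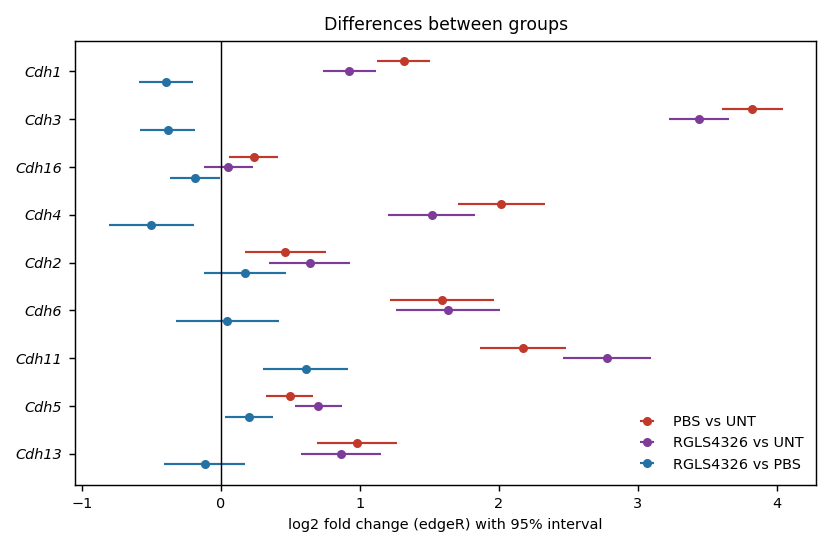
Points are log2 fold changes from the edgeR fit and bars their 95% intervals, for PBS against UNT (red), RGLS4326 against UNT (purple) and RGLS4326 against PBS (blue). In the comparison of treatments *Cdh1*, *Cdh3* and *Cdh4* lie left of 0 and *Cdh11* right of it, at -0.39, -0.38, -0.50 and 0.61.

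Without the 4 RGLS4326 libraries with more reads in no gene, *Cdh1* was at -0.25, *Cdh3* at -0.25, *Cdh4* at -0.42 and *Cdh11* at 0.47 (edgeR adjusted p of 0.119, 0.141, 0.130 and 0.0923), and 332 genes in all were called in place of 5280. With that share as a covariate 0 of 9 members were called as well, at -0.21, -0.19, -0.37 and 0.46 with adjusted p of 0.127, 0.188, 0.194 and 0.117 (edgeR), against 5 of 9 at an unadjusted p under 0.05. The 4 libraries had *Cdh3* at 92.3 to 105 CPM, below the 108 to 161 CPM of the other 7 RGLS4326 kidneys. Their *Cdh1* was at 378 to 434 CPM against 409 to 646, their *Cdh16* at 1120 to 1500 against 1260 to 2120, and their *Cdh11* at 114 to 178 against 103 to 134 CPM. Without PBS replicates 2 and 11, the kidneys with adrenal gland markers, *Cdh4* was at -0.39 (edgeR adjusted p = 0.0593), while *Cdh1*, *Cdh3* and *Cdh11* were still called.

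**Figure D4:**
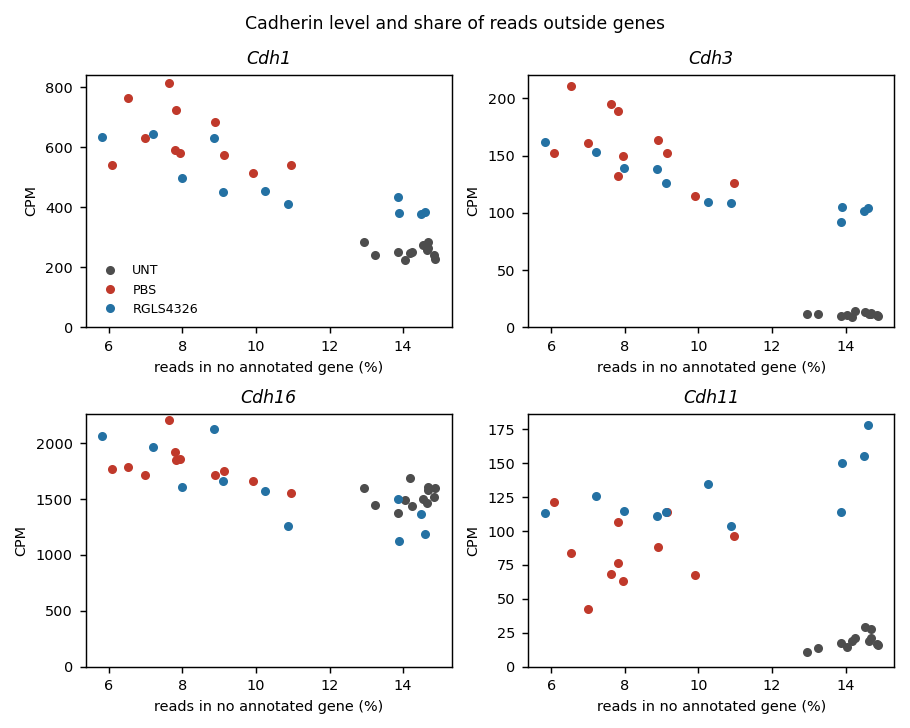
Each point is 1 kidney, with the percent of its reads in no annotated gene on the horizontal axis and the CPM of *Cdh1*, *Cdh3*, *Cdh16* or *Cdh11* on the vertical axis, for UNT (grey), PBS (red) and RGLS4326 (blue) mice. The 4 RGLS4326 kidneys above 13% hold *Cdh3* at 92.3 to 105 CPM and *Cdh11* at 114 to 178 CPM.

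Within runs, the directions of the 4 called members were the same in all 3. *Cdh1* differed by -0.34, -0.57 and -0.34 in runs 1, 2 and 3, *Cdh3* by -0.32, -0.57 and -0.35, *Cdh4* by -0.39, -0.47 and -0.60, and *Cdh11* by 0.33, 0.73 and 0.82. Only run 2 taken alone gave calls, for *Cdh1*, *Cdh3*, *Cdh11* and *Cdh16* (edgeR adjusted p of 0.0106, 0.0297, 0.0233 and 0.0302), and all 3 of its RGLS4326 kidneys are among the 4 with more reads in no gene. The difference between runs itself was tested as an interaction, which edgeR called for 0 of 15644 genes (0%), with 1126 genes and 0 of 9 members at an unadjusted p under 0.05. *Cdh6* changed sign between runs, at -0.06 and -0.18 in runs 1 and 2 and 0.46 in run 3, which holds PBS replicate 9, and was at -0.05 without that mouse. Against UNT, *Cdh6* in PBS kidneys was at 0.96 in run 3.

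Cell type markers moved beside these differences, in a comparison that called 15.3% of all tested genes higher and 18.5% lower, and far fewer without the 4 libraries (332 genes) or with the covariate (145 genes). All 5 principal cell markers were lower in RGLS4326 than in PBS (3 called), with sums of 511 to 2110 against 963 to 2380 CPM, and 6 of 6 proximal tubule markers were higher (5 called), with sums of 1750 to 2930 against 724 to 2610 CPM. UNT kidneys stood at 567 to 923 CPM for principal cell and 8590 to 12300 CPM for proximal tubule markers. Endothelial markers were higher after RGLS4326 in 7 of 7 (5 called), with sums of 635 to 765 against 561 to 746 CPM, beside the *Cdh5* difference. Of the fibroblast markers 4 of 5 were higher (1 called), beside the rise of *Cdh11*. Among the other lists, called markers were higher for podocytes (3 of 4) and the distal convoluted tubule (1 of 3), lower for macrophages (2 of 4), adipose tissue (2 of 3) and the adrenal gland (the 1 tested), and 2 higher and 1 lower of 3 for the thick ascending limb. For intercalated cells (4) and smooth muscle and pericytes (5) edgeR and DESeq2 each called 0, with 1 marker of each list at an unadjusted p under 0.05. The part of these cell types in the cadherin differences was not tested.

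The genes around the members were read from 5 lists of 86 genes, of which 66 passed the low-count filter. For PBS against UNT, 6 of these with under 10 reads in the median library of either group (*Cdh17*, *Cdh22*, *Cdh26*, *Ctnna2*, *Pcdh8* and *Pcdh20*) are not counted, since such a gene can pass the filter through the other group alone. Between PBS and UNT kidneys 40 of the other 60 rose and 11 fell, and over the 66 between RGLS4326 and PBS kidneys 12 rose and 9 fell by the edgeR test at the same threshold of 0.05. Of all 15644 genes tested, 43.1% rose and 39.0% fell in PBS against UNT, and 15.3% rose and 18.5% fell in RGLS4326 against PBS, so the treatment counts lie near the background. Of these 21 treatment calls, 3 (*Fat3*, *Pcdh17* and *Clstn2*) were made both with the share of reads outside genes as a covariate and without the 4 RGLS4326 libraries in which it was highest. The calls after RGLS4326 among catenins, desmosome genes and transcription factors, given next, were all lost in both. Genes named here beyond the largest rise and fall of each list were picked after their values were seen.

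Among the other classical, type II and 7D cadherins, 5 of 13 were tested and 2 had reads enough in both groups, of which *Cdh24* rose in PBS kidneys and *Cdh19* fell. *Cdh17* (LI-cadherin, of intestinal epithelium) was at 0 to 4 reads in UNT and 26 to 73 reads in PBS libraries, or 0.0335 ± 0.0371 CPM in UNT, 1.18 ± 0.423 in PBS and 0.838 ± 0.331 in RGLS4326 kidneys. It passed the low-count filter through the knockout groups alone, so its fold and p are not given. *Cdh19*, known from Schwann cells, fell by 0.94 on the log2 scale (SE 0.22, edgeR adjusted p = 0.000194). Between RGLS4326 and PBS edgeR called 0 of these 5 (1 at an unadjusted p under 0.05, *Cdh19*, which DESeq2 called higher), and their median log2 fold change was 0.13.

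Catenins and junction plaque genes bind cadherin tails or anchor the junction to actin. In PBS kidneys 10 of 16 rose and 4 fell (*Ctnna3*, *Arvcf*, *Pkp4* and *Plekha7*). *Ctnnd2*, a delta catenin known from brain, rose by 4.79 (SE 0.17, edgeR adjusted p = 7.13e-24), at 0.478 ± 0.17 CPM in UNT, 13 ± 3.15 in PBS and 9.59 ± 1.95 in RGLS4326 kidneys. *Ctnna2*, the neural alpha catenin, was at 24 to 85 reads in UNT, 1 to 8 in PBS and 0 to 7 in RGLS4326 libraries, and it passed the filter through the UNT mice alone, so its fold and p are not given either. The widely expressed partners *Ctnnb1*, *Ctnna1* and *Ctnnd1* rose by 0.30, 0.80 and 0.58 on the log2 scale. After RGLS4326 4 of 17 fell, against 18.5% of all tested genes (*Nectin2*, *Nectin4*, *Ctnnd2* and *Jup*) and edgeR called 0 as higher, with 1 at an unadjusted p under 0.05 and 0 by DESeq2. *Nectin2*, an adhesion receptor of the same junction, listed in the tables under its older symbol *Pvrl2*, fell the most, by 0.55 (SE 0.11, edgeR adjusted p = 0.00165), from 142 ± 29.6 CPM in PBS to 97.0 ± 20.6 CPM, with UNT at 41.5 ± 5.41 CPM.

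Of the desmosome genes, 7 of 11 were tested, and 6 rose in PBS kidneys while *Perp* fell by 0.20 (SE 0.06, edgeR adjusted p = 0.00286). *Pkp1*, a plakophilin of the desmosomal plaque, rose the most, by 2.23 (SE 0.17, edgeR adjusted p = 1.42e-14), and after RGLS4326 it fell by 0.42 (SE 0.16, edgeR adjusted p = 0.0380), as *Pkp3* did by 0.41. As higher after RGLS4326 edgeR called 0 desmosome genes, with 0 at an unadjusted p under 0.05 and 0 by DESeq2.

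Of the large, flamingo and unclustered protocadherins, 22 of 30 were tested. In PBS kidneys 13 of 20 rose and *Pcdh17*, *Cdhr2* and *Cdhr5* fell, the last pair being cadherins of the proximal brush border. *Pcdh8* was at 1 to 7 reads in UNT, 15 to 38 in PBS and 11 to 39 in RGLS4326 libraries, and it too passed the filter through the groups where it is high. After RGLS4326 8 of 22 rose, against 15.3% of all tested genes, and 5 of these 8 calls were lost with the covariate and without the 4 libraries. As lower edgeR called 0, with 0 at an unadjusted p under 0.05 and 0 by DESeq2. *Fat3*, a giant cadherin, rose by 1.43 (SE 0.22, edgeR adjusted p = 0.000191), from 1.48 ± 0.692 CPM in PBS to 3.99 ± 0.796 CPM, and UNT kidneys held 1.28 ± 0.502 CPM. *Pcdh17* had fallen by 1.5 in PBS (SE 0.16, edgeR adjusted p = 2.45e-10), from 48.7 ± 10.4 to 17.2 ± 6.61 CPM, and stood at 29.3 ± 4.80 CPM after RGLS4326. *Fat3*, *Pcdh17* and *Clstn2* were the list genes still called without the 4 RGLS4326 libraries with more reads in no gene, at 1.33, 0.81 and 0.60.

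Of 15 transcription factors known for cadherin promoters or epithelial identity, 10 rose in PBS kidneys and 2 fell, *Ovol1* among them. *Snai1*, a repressor of *Cdh1*, had the largest rise, by 1.31 (SE 0.14, edgeR adjusted p = 6.12e-11). After RGLS4326 4 rose (*Zeb2*, *Snai2*, *Zeb1* and *Tcf4*) and 3 fell, *Grhl1* and *Ovol2* among them, where 15.3% of all tested genes rose and 18.5% fell; none of these 7 calls was made with the covariate or without the 4 libraries. *Zeb2*, another repressor of *Cdh1*, rose by 0.45 (SE 0.11, edgeR adjusted p = 0.00549), from 84.5 ± 18.9 to 115 ± 19.8 CPM. *Grhl1*, an epithelial activator, fell by 0.43 (SE 0.09, edgeR adjusted p = 0.00296), from 6.53 ± 1.15 to 4.85 ± 0.52 CPM.

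How the members varied together among mice of the same group and run was read from deviations of log2 CPM from the mean of each group within each run. Of 36 pairs, 10 correlated at an adjusted p under 0.05 (permutation within group and run, 100000 resamples, Benjamini-Hochberg over the pairs), and all 10 were positive. *Cdh1* and *Cdh3* had the highest Pearson r, 0.841 (Spearman rho 0.809, n = 34, permutation p = 1.00e-05, the smallest that these resamples can give, adjusted p = 0.00036), and 0.794 without the 2 mice farthest from the median of *Cdh1*. *Cdh1* also went with *Cdh16* (r = 0.776, rho 0.676, permutation adjusted p = 0.00603, 0.771 without the 2 mice) and *Cdh4* (r = 0.772, rho 0.743, permutation adjusted p = 0.00048, 0.745 without them), and *Cdh3* went with *Cdh4* (r = 0.682, rho 0.683, permutation adjusted p = 0.0108, 0.610 without 2 mice). *Cdh16* with *Cdh3* (r = 0.484, rho 0.440, permutation adjusted p = 0.0621, 0.526 without 2 mice) and with *Cdh4* (r = 0.482, rho 0.442, permutation adjusted p = 0.0559, 0.458 without 2 mice) did not pass. Among the other members, *Cdh6* with *Cdh13* had the highest r, 0.795 (rho 0.729, permutation adjusted p = 0.00048, 0.696 without 2 mice). *Cdh6* also went with *Cdh5* (r = 0.677, rho 0.544, permutation adjusted p = 0.0116, 0.510 without 2 mice) and with *Cdh2* (r = 0.644, rho 0.530, permutation adjusted p = 0.0273, 0.494 without 2 mice). The remaining calls were *Cdh2* with *Cdh13* (r = 0.664, permutation adjusted p = 0.0319, but 0.107 for the rho of 0.433), *Cdh5* with *Cdh11* (r = 0.565, permutation adjusted p = 0.0472) and *Cdh13* with *Cdh16* (r = 0.506, permutation adjusted p = 0.0183), which gave 0.506, 0.525 and 0.445 without 2 mice. PBS replicate 9, low in *Cdh2*, *Cdh5*, *Cdh6*, *Cdh11* and *Cdh13*, is among the 34 mice. *Cdh11* and *Cdh1* had r = -0.218 (rho -0.265, permutation adjusted p = 0.431, -0.240 without 2 mice). Taken by group, r was uneven, and differences between groups were not tested. *Cdh1* with *Cdh3* had r of 0.634 in UNT, 0.915 in PBS and 0.855 in RGLS4326 mice, but *Cdh1* with *Cdh16* had 0.189, 0.641 and 0.929. *Cdh2* with *Cdh6* had 0.137 in UNT mice, *Cdh5* with *Cdh11* had 0.158 in RGLS4326 mice, and *Cdh3* with *Cdh16* had -0.243 in UNT mice. The values of a pair share a library and its composition. Deviations were not adjusted for the share of reads in no gene, which ran from 5.82% to 14.6% among RGLS4326 libraries. The part of that share in these correlations was not tested.

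**Figure D5:**
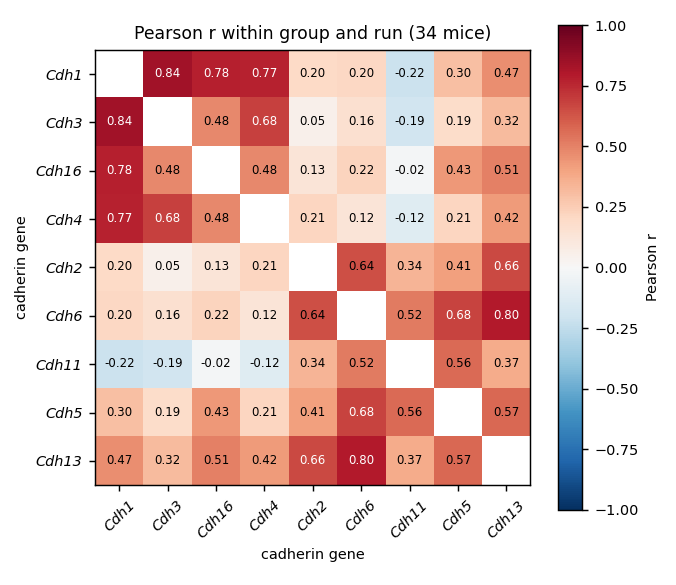
Each square gives the Pearson r of 2 cadherins over 34 mice, computed on log2 CPM deviations from the mean of each group within each run, from -1 (blue) to 1 (red). *Cdh1* has r of 0.84, 0.78 and 0.77 with *Cdh3*, *Cdh16* and *Cdh4*, while *Cdh16* has 0.48 with both *Cdh3* and *Cdh4*, and *Cdh6* with *Cdh13* reaches 0.80.

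Measured the same way over all tested genes and given as a description, the 3 genes most like each member were *Rab3d*, *Cbx6* and *Mbp* for *Cdh1* (r of 0.935, 0.903 and 0.902 over 34 mice) and *Pygb*, *Wdr1* and *Lasp1* for *Cdh3* (0.908, 0.895 and 0.883). For *Cdh16* they included *Adora1* and *Anxa11* (0.911 and 0.871), and for *Cdh4* they were *Syt5*, *Ctnnd2* and *Mybpc2* (0.835, 0.831 and 0.829). *Cdh6* was most like *Tns3*, *Slit3* and *Adamts12* (0.905, 0.895 and 0.894), and *Cdh11* most like *Gucy1a3*, *Itga8* and *Epha3* (0.869, 0.841 and 0.824). For *Cdh5* the genes were *Dchs1*, *Pcdhgb7* and *Ksr1* (0.879, 0.840 and 0.839). *Cdh2* was most like *Vwa5a*, *Jak1* and *Cast* (0.847, 0.845 and 0.843), and *Cdh13* most like *Spg11*, *Prrc2b* and *Prpf8* (0.877, 0.864 and 0.853). *Ctnnd2* for *Cdh4* and *Dchs1* for *Cdh5* were the only genes of the 5 lists among those named here.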

How the data were processed

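Raw read counts per gene, deposited by the authors for 34 kidneys, were the only unit used. Per the labels and the study's methods, poly(A) RNA was made into TruSeq stranded libraries and read as pairs on a NextSeq, trimmed with Trim Galore, aligned to GRCm38 (mm10) with STAR and counted with HTSeq 0.6.1; the submitters' processing notes also name FastQC 0.11.2, SAMtools 1.1 and Picard 1.119. The gene annotation and the strand setting of the counting are not given in the sources used here, but no member shares exon bases with another gene of GENCODE M21. Reads in no gene, ambiguous or multiply aligned were left out of library sizes, and the share in no gene is described above. The multiply aligned share was 22.8% to 25.7% in UNT, 14.8% to 19.4% in PBS and 14.8% to 19.1% in RGLS4326 libraries.

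The counts were tested with edgeR 4.0.16 in R 4.3.3 (TMM scaling, filterByExpr, quasi-likelihood test, 2-sided, 3 groups in 1 fit over 34 libraries, Benjamini-Hochberg adjustment over 15644 genes, threshold 0.05). Standard errors come from the log2 fold change and its F. The fit was tested on simulated data first. No 2 tables were identical. CPM per kb uses the union of a gene's exons in GENCODE M21, and log2 CPM had 0.5 added for correlations. A replicate is 1 mouse.

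The members, the gene lists and the marker lists were chosen with earlier results of these data known. The genes named are all members, the called gene with the largest rise and the largest fall of each list in each comparison, and for each member the 3 most alike. A few genes that this rule names are not reported here. Alternatives were DESeq2 1.42.0, RLE scaling, no filter, only the 2 groups compared, a replicate block, the run as a covariate or each run alone, and a covariate for the share of reads outside genes. Leaving out PBS replicate 9, PBS replicates 2 and 11, or 4 RGLS4326 libraries was chosen after seeing the data.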

Additional observations from a re-analysis of the deposited data

How the results depend on the processing

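With a covariate for the share of reads outside genes, calls between RGLS4326 and PBS came to 0 of 9 members, 3 list genes (*Fat3*, *Pcdh17* and *Clstn2*) and 145 genes in all, against 4, 21 and 5280 in the reported fit. Without the 4 RGLS4326 libraries with more reads in no gene they came to 0, 3 and 332. Run 1 alone gave 0, 1 (*Pcdh17*) and 54, and run 3 alone gave 0, 0 and 0 (edgeR; at an unadjusted p under 0.05, 3 members in each of these runs and 2826 genes in run 3), in fits with fewer mice. Without PBS replicates 2 and 11, 2836 genes were called. DESeq2, RLE scaling, no filter and leaving out PBS replicate 9 each called *Cdh1*, *Cdh3*, *Cdh4* and *Cdh11*, and the fits with the run as a covariate or with 2 groups alone called *Cdh5* in addition. No alternative changed the direction of these 4. Signs turned for *Cdh6* between RGLS4326 and PBS (-0.057 in run 1, -0.18 in run 2, -0.048 without PBS replicate 9), for *Cdh2* between PBS and UNT (-0.12 in run 3) and for *Cdh16* against UNT with the covariate (-0.21 in PBS, -0.23 in RGLS4326) and in run 2 (-0.26 in RGLS4326). Between PBS and UNT 7 member values moved by over 1 SD without a change of sign: *Cdh1* (0.83) and *Cdh3* (3.31) with the covariate, *Cdh2* (0.87) and *Cdh11* (2.62) in run 1, *Cdh3* (3.54) and *Cdh5* (0.23) in run 2 and *Cdh6* (0.96) in run 3. Between RGLS4326 and UNT 8 did. Values outside this count also moved by more than their SE. Between PBS and UNT, *Cdh11* was at 2.52 with the covariate against 2.17 ± 0.15 (SE), and *Cdh13* at 0.61 in run 2 against 0.98 ± 0.14. The cause was not tested. UNT and PBS libraries do not overlap in the share of reads outside genes, so their differences with the covariate cannot separate share and group. The list calls between PBS and UNT (56 with the 6 genes of few reads included) stayed within 1.5 times in every alternative. Equal replicate numbers did not pair the mice: over 33 pairs of libraries with the same number the correlation of deviations ran from -0.394 to 0.443, and the replicate block called 4 members, 22 list genes and 5098 genes. *Cdh4* and *Cdh2*, with as few as 37 and 82 reads in a library, are the least precisely counted members.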
